A study of Homo sapiens with 15 samples.

Results

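The epidermal growth factor receptor (EGFR) family was followed at the RNA level in 15 libraries of 5 human cell lines, 3 libraries per line. The genes were taken by symbol from the deposited count table. Of 9 genes listed (the EGFR ligands AREG, EREG, HBEGF, TGFA and BTC, the neuregulin NRG1, and the receptors EGFR, ERBB2 and ERBB3), 8 had a row among 15510 gene rows and all 8 were tested. EREG had no row there, so its level was not analysed. ARPE19 is an established retinal pigment epithelial line and the parent of the other 4 lines. T53D4 is labelled as ARPE19 carrying pbabe-hTERT+p53DD, which holds telomerase and a dominant negative p53 fragment, and pbabe-cyclinD1+CDK4R24C, which holds cyclin D1 and a mutant CDK4. The remaining lines are labelled as carrying both of those plasmids and 1 more: pWZL-H-RasV12 with an active H-RAS in RasV12, pBabe-Puro-MEK-DD with an active MEK in MekDD, and pBabe-myr-HA-Akt with a membrane-bound AKT in AKTmyr. Per the labels, ARPE19 and T53D4 are not transformed, MekDD is weakly transformed, and RasV12 and AKTmyr are transformed. All lines grew attached in the same serum-containing medium, and each library came from its own freshly thawed vial. Each construct is represented by 1 line, so p-values compare lines against the spread between vials and do not cover independently made lines.

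Ligands of this family are made as membrane-anchored precursors, and sheddases of the ADAM family cut them free. Amphiregulin (AREG), TGF-alpha (TGFA), HB-EGF (HBEGF) and betacellulin (BTC) bind EGFR, and HB-EGF and betacellulin also bind ERBB4. Neuregulin 1 (NRG1) binds ERBB3 and ERBB4. ERBB2 has no known ligand of its own and signals as the partner of the others. Bound receptors signal through RAS, MEK and ERK and through PI3K and AKT, the routes that the added constructs switch on below the receptor.

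Library depth on genes lay between 20.63 M and 46.55 M reads. The HRASV12 construct stood at 310 ± 30.4 CPM (gene counts scaled to a library of 1 M reads, mean ± SD, n = 3 throughout) in RasV12 against 18.6 to 23.2 in the other lines, MEKDD at 753 ± 229 CPM in MekDD, and the AKT construct at 840 ± 334 CPM in AKTmyr against 104 to 118. The cyclin D1 construct row held 146 CPM in T53D4, 193 in ARPE19 and 270 in MekDD, against 858 in AKTmyr and 2349 in RasV12. The TERT and p53DD rows followed the labels, with TERT at 879 CPM in T53D4, 454 in MekDD and 0.18 in ARPE19, and p53DD at 70.7, 32.3 and 0.01 CPM. The cyclin D1 values go against the labels of T53D4 and MekDD, so both names below mean the libraries so labelled. The CDK4 construct row held 92.2 CPM in T53D4, 142 in MekDD and 70.7 in ARPE19, against 1005 in AKTmyr and 2380 in RasV12. These values too go against the labels of T53D4 and MekDD. RasV12 and AKTmyr thus differ from T53D4 and MekDD in both rows besides the RAS or AKT construct, and these parts cannot be told apart. Of 14 listed markers of pigment epithelium, 12 had a row, and 8 to 9 reached a mean of 1 CPM in each line. Among these, RLBP1 stood at 2.9 to 5.0 CPM, LRAT at 2.4 to 5.5 and RDH5 at 2.6 to 4.3 in the line means. The lineage factors MITF (27.5 to 92.5 CPM) and OTX2 (64.4 to 94.2 CPM) were present. RPE65 had no read in ARPE19 or T53D4, and TYR stayed at 0.34 CPM or less in every line mean. Of 12 markers of blood, endothelial, melanocyte, liver and photoreceptor cells, 9 had a row and 0 reached a mean of 1 CPM in any line, with summed levels between 0.77 and 1.78 CPM per library. The summed level of 5 markers listed as epithelial, chiefly KRT8, KRT18 and CDH2, was 956 to 1067 CPM in RasV12 and 1899 to 2026 CPM in T53D4. It was 1431 to 1505 in MekDD, 1387 to 2131 in AKTmyr and 2581 to 2748 in ARPE19. CDH1 and EPCAM had line means of 1.12 CPM or less. Of 4 mesenchymal markers, VIM averaged 10320 CPM in RasV12 and 7796 in T53D4. TAGLN (14.1 and 254.5), COL1A1 (5.81 and 39.5) and ACTA2 (21.7 and 36.0) had lower means in RasV12. The part of these levels in the results was not tested.

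Against T53D4, the line with neither RAS, MEK nor AKT construct by its label, 3 of the 8 members were higher in RasV12 (AREG, TGFA and BTC) and 2 were lower (EGFR and ERBB2), by the quasi-likelihood test of edgeR, with p adjusted by Benjamini-Hochberg over 13599 genes (called under 0.05, and written below as edgeR adjusted p). Over all tested genes 10.8% were higher and 13.6% lower in that comparison. In AKTmyr against T53D4, BTC was higher and HBEGF lower, with 9.91% of all genes higher and 10.2% lower. In MekDD against T53D4, 0 of 8 members were called by edgeR, against 2.27% of all genes higher and 2.83% lower. At an unadjusted p under 0.05 there were 4 such members, DESeq2 called 1 (BTC), and with the replicate number as a block 3 were called: TGFA (log2 1.01, edgeR adjusted p = 0.0172), BTC (log2 0.70, edgeR adjusted p = 0.0402) and EGFR (log2 -0.48, edgeR adjusted p = 0.0242). These 3 comparisons share the T53D4 libraries, so a member high or low in T53D4 moves all of them.

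T53D4 against its parent ARPE19 gave 0 of 8 members called by edgeR and by DESeq2, with 3 at an unadjusted p under 0.05. Background calls were few there, at 0.0368% of genes higher and 0.118% lower. With the replicate block TGFA was lower in T53D4 (log2 -1.13, edgeR adjusted p = 0.0412), against log2 -1.04 (SE 0.40, edgeR adjusted p = 0.388) without it. No receptor among the members was called. The 95% intervals of the log2 difference ran from -0.61 to 0.23 for EGFR and from -0.23 to 0.31 for ERBB2. For ERBB3 the interval ran from -0.88 to 1.17. Such intervals do not show equal levels.

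The median log2 difference of the 8 members was 0.01 in RasV12 against T53D4, where the median over all genes was 0.01, since members moved in both directions. It was -0.07 in MekDD and -0.06 in AKTmyr against T53D4, beside 0.00 and -0.01 over all genes.

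**Figure D1:**
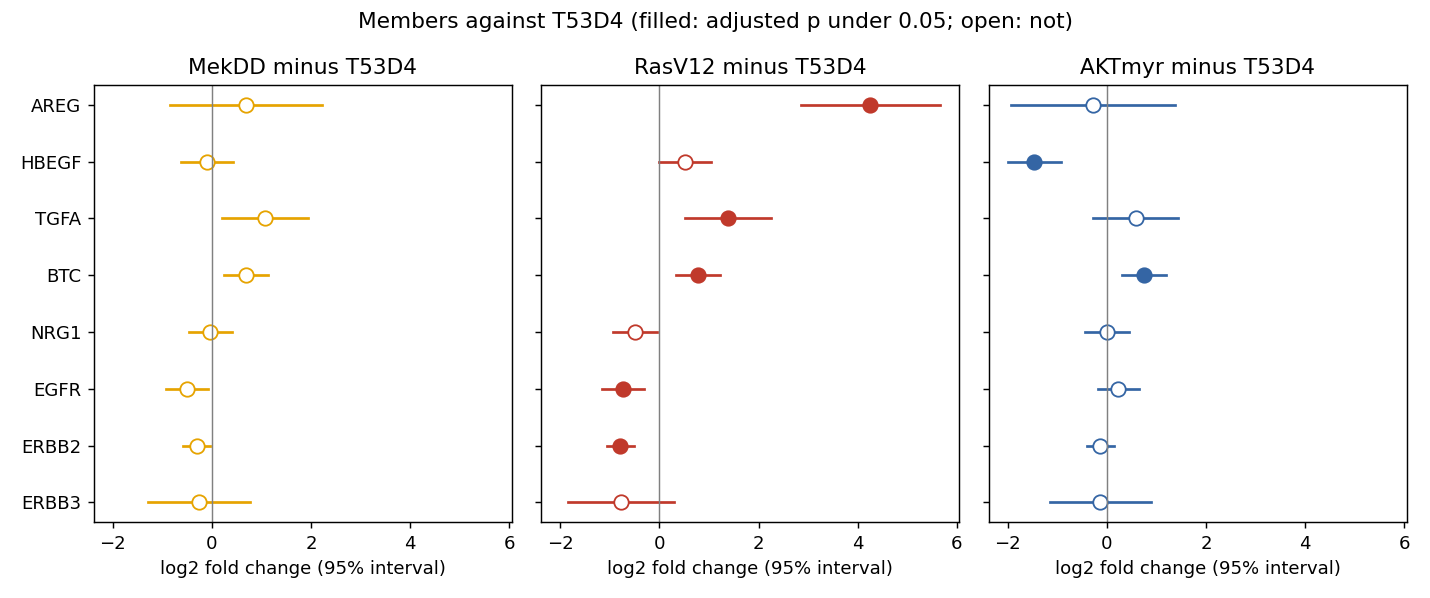
Log2 fold change (x axis) of the 8 members in MekDD, RasV12 and AKTmyr against T53D4, with 95% intervals from edgeR; filled points passed an adjusted p of 0.05 and open points did not. AREG in RasV12 stands at 4.26 and HBEGF in AKTmyr at -1.46.

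AREG was the ligand with the widest range between line means, 26.3-fold. It lies at chr4:74445136-74455005 (hg38, plus strand). The 3 RasV12 libraries held 2.77, 2.48 and 5.04 CPM, from 76, 105 and 112 reads. In T53D4 the values were 0.27, 0.09 and 0.19 CPM, from 8, 4 and 4 reads. Every RasV12 library lay above all 12 libraries of the other lines, whose highest was 0.46 CPM in ARPE19 replicate 2. AREG passed the low-count filter through its RasV12 libraries, since elsewhere it had 1 to 18 reads per library.

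AREG rose in RasV12 against T53D4 by log2 4.26 (SE 0.66, edgeR adjusted p = 0.000337). The edgeR adjusted p ranged up to 0.00341 over all alternatives tried. RasV12 replicate 3 was the highest, and without it the log2 difference was 3.88. AREG was also higher in RasV12 than in MekDD (log2 3.58, SE 0.61, edgeR adjusted p = 0.00134), than in AKTmyr (log2 4.54, SE 0.66, edgeR adjusted p = 0.000141) and than in ARPE19 (log2 3.76, SE 0.62, edgeR adjusted p = 0.000545). The former was log2 5.35 without AKTmyr replicate 2 and the latter log2 4.73 without ARPE19 replicate 2. Below RasV12 the order was MekDD, ARPE19, T53D4 and AKTmyr, and no neighbours in it differed beyond their spread. For MekDD against T53D4 the 95% interval of the log2 difference ran from -0.85 to 2.22, so with 28 and 16 reads over 3 libraries a change of a few fold in MekDD was not detectable at this depth.

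The 250 bases before the RefSeq start (GRCh38.p14) are shown for AREG and HBEGF, the ligands with the widest ranges between lines, and for the first start of EGFR. Promoter entries matched 7 of the 9 genes. Each window was searched on both strands for the AP-1 motif TGANTCA, the cyclic AMP response element (CRE) motif TGACGTCA and the SP1 motif GGGCGG. A CRE match and an AP-1 match differ in length and so are not the same bases. Capitals mark CRE and AP-1 matches. Bases that GENCODE v29 places in an exon were left out of what is shown, 2 for AREG and 28 for HBEGF. The stretches are chr4:74444886-74445133 on the plus strand for AREG, chr5:140346632-140346853 on the minus strand for HBEGF and chr7:55018767-55019016 on the plus strand for EGFR.
AREG: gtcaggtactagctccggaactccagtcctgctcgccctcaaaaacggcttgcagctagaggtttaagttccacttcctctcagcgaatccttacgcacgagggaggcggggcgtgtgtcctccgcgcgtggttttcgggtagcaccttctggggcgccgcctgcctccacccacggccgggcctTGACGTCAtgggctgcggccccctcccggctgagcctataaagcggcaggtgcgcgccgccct
HBEGF: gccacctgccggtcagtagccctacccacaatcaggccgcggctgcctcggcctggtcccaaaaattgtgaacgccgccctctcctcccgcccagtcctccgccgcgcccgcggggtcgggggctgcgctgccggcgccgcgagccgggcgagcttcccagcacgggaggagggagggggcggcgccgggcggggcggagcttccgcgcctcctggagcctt
EGFR: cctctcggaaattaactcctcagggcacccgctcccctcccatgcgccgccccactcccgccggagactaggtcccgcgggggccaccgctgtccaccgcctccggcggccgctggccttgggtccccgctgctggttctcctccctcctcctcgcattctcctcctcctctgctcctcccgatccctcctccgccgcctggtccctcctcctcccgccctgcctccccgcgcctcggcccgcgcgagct

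The AREG window held 1 CRE match, with its first base 65 bases before the start, and 1 SP1 match. The HBEGF window held 5 SP1 matches and the EGFR window 2, with no CRE or AP-1 match in either. Of 35116 RefSeq windows of this length, 1.65% held the CRE motif, 6.57% the AP-1 motif and 42.6% the SP1 motif. Windows read but not shown were EREG, BTC and the second start of TGFA, with no match, the first start of TGFA, with 3 SP1 matches, a second start of EGFR, with 2 AP-1 matches, and ERBB2, with 1 AP-1 match. These are matches of letters and say nothing on binding.

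AREG, EREG, BTC and EPGN (epigen, a further EGFR ligand) share a stretch of chromosome 4 with the CXCL chemokine cluster. Within 1 Mb of AREG the deposited annotation has 15 further genes outside the member list, 10 have a row, and 8 were tested. In RasV12 against T53D4, 6 of these 8 were higher and 1 lower, beside 10.8% and 13.6% of all genes. In MekDD and AKTmyr against T53D4, edgeR called 0 and 0, with 2 and 1 at an unadjusted p under 0.05, and DESeq2 called 1 and 0. The chemokine gene CXCL3 had 46.6, 28.1 and 152 CPM in RasV12 and 1.40, 1.04 and 1.38 CPM in T53D4 (log2 5.90, SE 0.58, edgeR adjusted p = 9.38e-06). PARM1, which codes for a mucin-like membrane protein, had 7.12, 11.96 and 25.2 CPM in RasV12 and 0.31, 0.15 and 0.43 CPM in T53D4 (log2 5.72, SE 0.57, edgeR adjusted p = 1.03e-05). CXCL2 had 7.19, 3.29 and 31.4 CPM in RasV12 and 0.44, 0.28 and 0.24 CPM in T53D4 (log2 5.41, SE 0.77, edgeR adjusted p = 0.000187). The groups did not overlap for any of these 3 genes. Without RasV12 replicate 3 the log2 differences were 4.88 for CXCL3, 5.09 for PARM1 and 3.999 for CXCL2, and all 3 were still called. CXCL1, CXCL2 and CXCL3 are near-identical copies, so the split of reads between them is uncertain.

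Without RasV12 replicate 3 the 6 genes called higher became 4. CXCL8, the interleukin-8 gene, had 79.0, 95.5 and 1898 CPM in RasV12 and 23.5, 45.8 and 35.04 CPM in T53D4, with an edgeR adjusted p of 0.00656 that became 0.0512 without that library. CXCL1 went from 0.0386 to 0.792 in the same way, and was also not called without any 1 of the T53D4 libraries (edgeR adjusted p from 0.0881 to 0.111) or with the replicate block (0.0652) or the 2 lines alone (0.108). MTHFD2L, a mitochondrial folate enzyme, was higher by log2 1.14 (SE 0.22, edgeR adjusted p = 0.00174) in every alternative. The RAS-association gene RASSF6 was the gene called lower (log2 -2.47, SE 0.73, edgeR adjusted p = 0.0234), a call lost without RasV12 replicate 1 (0.0839) or 2 (0.0946) or T53D4 replicate 2 (0.0821) or 3 (0.065). Between 1 and 5 Mb from AREG, a span chosen after seeing the data, 34 genes were tested. Against T53D4 edgeR called 5 higher (14.7%) and 4 lower in RasV12, beside 10.8% and 13.6% of all genes. There, AKTmyr had 7 higher (20.6%) and 4 lower, beside 9.91% and 10.2% of all genes. MekDD had 1 call, higher (2.94%), beside 2.27% of all genes higher and 2.83% lower. RasV12 replicate 3 was the highest RasV12 library for AREG, HBEGF, CXCL8, CXCL1, CXCL2, CXCL3 and PARM1.

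**Figure D2:**
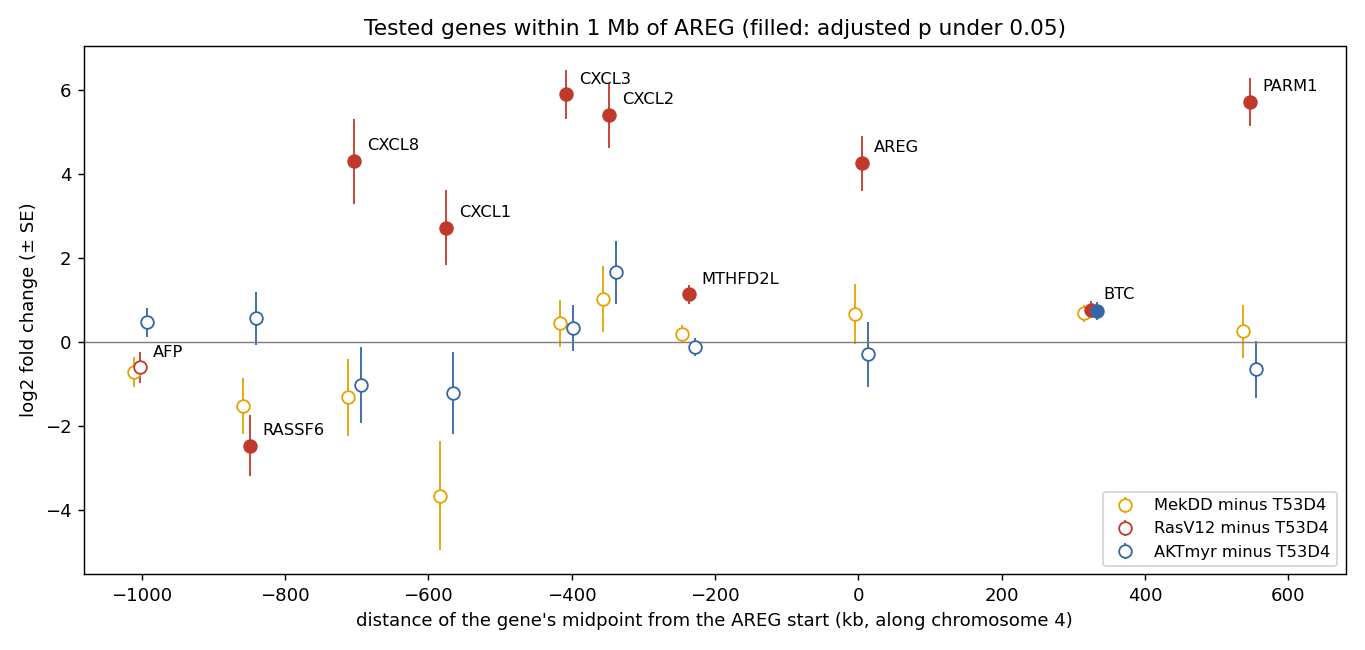
Log2 fold change against T53D4 (± SE, y axis) of the tested genes within 1 Mb of AREG, by distance of the gene's midpoint from the AREG start (kb, x axis), for MekDD, RasV12 and AKTmyr; filled points passed an edgeR adjusted p of 0.05. In RasV12 CXCL3 (5.90), PARM1 (5.72), CXCL2 (5.41) and AREG (4.26) stand highest, and the MekDD and AKTmyr points are open except BTC in AKTmyr.

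HBEGF was lowest in AKTmyr. HB-EGF is an EGFR and ERBB4 ligand whose anchored form is also the diphtheria toxin receptor, and its gene lies at chr5:140332843-140346603 (minus strand). AKTmyr held 7.94, 9.84 and 6.92 CPM and T53D4 held 31.8, 18.4 and 18.1 CPM. All 3 AKTmyr libraries lay below all 12 others. HBEGF was lower in AKTmyr than in T53D4 by log2 1.46 in size (log2 -1.46, SE 0.25, edgeR adjusted p = 0.00169), and than in ARPE19 (log2 -1.57, SE 0.25, edgeR adjusted p = 0.00106). It was higher in MekDD than in AKTmyr (log2 1.36, SE 0.25, edgeR adjusted p = 0.00163) and in RasV12 than in AKTmyr (log2 1.98, SE 0.25, edgeR adjusted p = 5.32e-05). The other 4 lines ran from 21.2 CPM in MekDD to 32.7 in RasV12, where replicate 3 stood at 44.4 CPM. RasV12 against T53D4 was not called (log2 0.52, SE 0.24, edgeR adjusted p = 0.14), and was called without T53D4 replicate 1 (log2 0.85, edgeR adjusted p = 0.0169).

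TGFA, at chr2:70447284-70554193 (minus strand), codes for TGF-alpha, which binds EGFR. RasV12 held 124, 111 and 81.8 CPM and T53D4 held 62.2, 26.4 and 33.0 CPM, and the groups did not overlap. TGFA rose in RasV12 against T53D4 by log2 1.38 (SE 0.41, edgeR adjusted p = 0.0234). The call was lost without RasV12 replicate 1 (0.0699) or 2 (0.0583), or T53D4 replicate 2 (0.0966) or 3 (0.0811), and held with the replicate block (0.000547). Against ARPE19, which averaged 83.0 CPM, TGFA in RasV12 was not called (log2 0.345, SE 0.40, edgeR adjusted p = 0.548). MekDD held 147, 51.4 and 55.7 CPM, and the first of those libraries was the highest of all 15. Against T53D4 its log2 difference was 1.07 (SE 0.40, edgeR adjusted p = 0.173), and 0.40 without that library. Replicate 1 held the highest TGFA value in 5 of 5 lines, while EGFR was highest in replicate 3 in 5 of 5 lines and lowest in replicate 1 in 4 of 5. In order of level, RasV12, MekDD, ARPE19, AKTmyr and T53D4 followed one another with no neighbours called different.

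BTC, at chr4:74744759-74794523 (minus strand), codes for betacellulin. T53D4 held the lowest values, 2.16, 3.04 and 3.43 CPM, beside 5.37, 3.85 and 5.58 in RasV12 and 5.03, 4.998 and 4.38 in AKTmyr. The groups did not overlap. BTC was higher than in T53D4 in RasV12 (log2 0.78, SE 0.21, edgeR adjusted p = 0.0138) and in AKTmyr (log2 0.74, SE 0.21, edgeR adjusted p = 0.0221). The first call was lost without T53D4 replicate 1 (0.0548) or RasV12 replicate 3 (0.0503), and the second without T53D4 replicate 1 (0.0825) or AKTmyr replicate 1 (0.0604) or 2 (0.0555). With only the 2 lines compared in the fit, both were lost (0.0618 and 0.0849). MekDD held 4.27, 4.50 and 5.16 CPM, a log2 difference from T53D4 of 0.69 (SE 0.21, edgeR adjusted p = 0.0748). ARPE19 held 3.63, 4.43 and 3.75 CPM. Against it neither RasV12 (log2 0.32, SE 0.20, edgeR adjusted p = 0.259) nor AKTmyr (log2 0.29, SE 0.20, edgeR adjusted p = 0.376) was called.

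**Figure D3:**
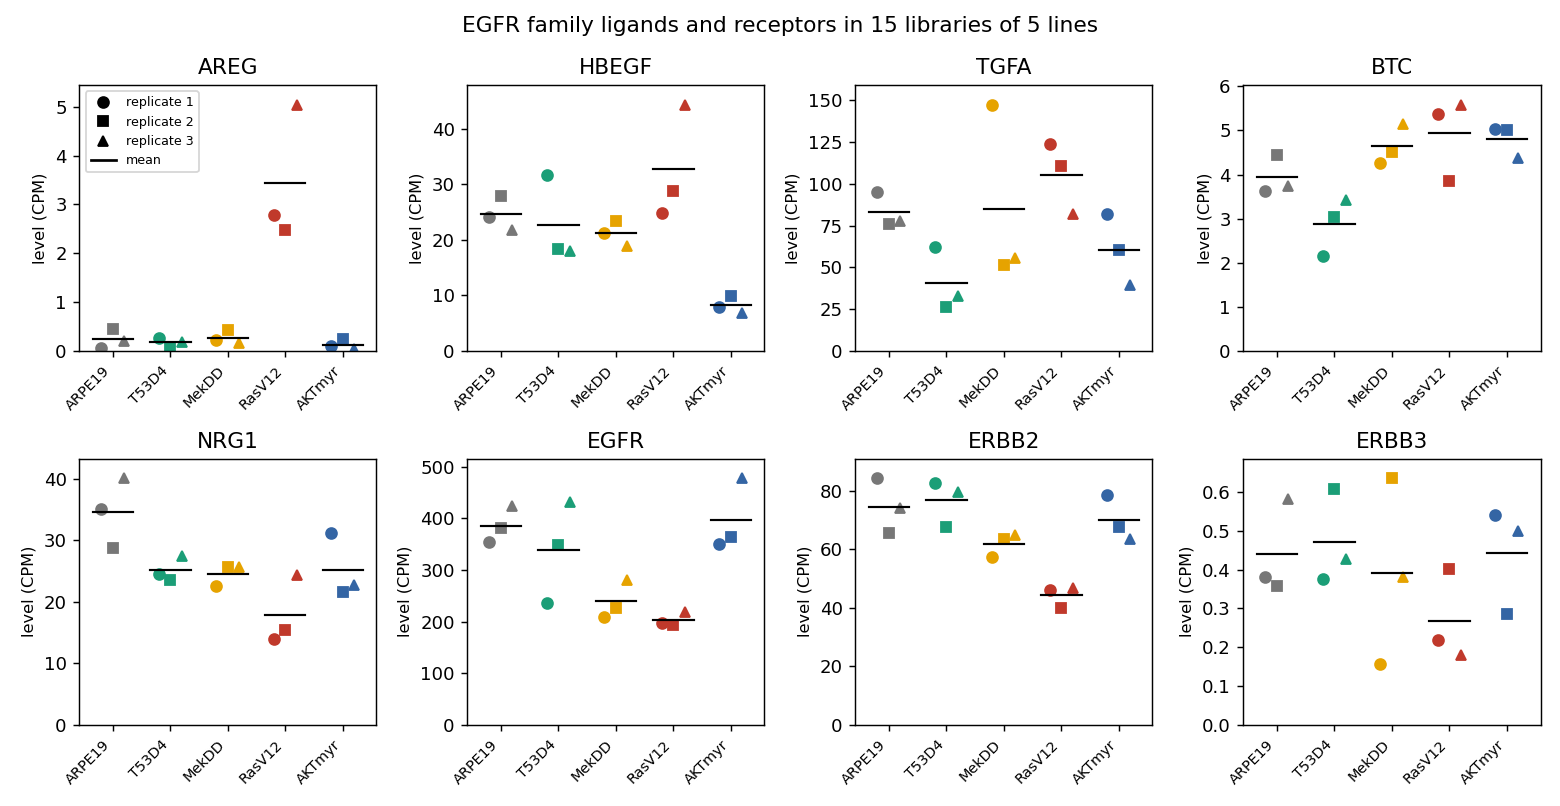
Level (CPM, y axis, from 0) of each member in every library by line; marker shapes give the replicate number in the labels and bars the line mean. AREG reaches 2.48 to 5.04 CPM in RasV12, HBEGF is lowest in AKTmyr, and TGFA is highest in replicate 1 of every line.

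NRG1 codes for neuregulin 1, which binds ERBB3 and ERBB4, and lies on chromosome 8 (plus strand) in a span that overlaps AC083977.1 on the same strand. ARPE19 held the highest values, 35.1, 28.8 and 40.1 CPM, and RasV12 the lowest, 13.9, 15.4 and 24.3 CPM. These groups did not overlap. NRG1 was lower in RasV12 than in ARPE19 (log2 -0.96, SE 0.21, edgeR adjusted p = 0.00316). Against T53D4, whose libraries held 24.5, 23.5 and 27.4 CPM, the log2 difference was -0.50 (SE 0.20, edgeR adjusted p = 0.0962). It was called with the replicate block (log2 -0.51, edgeR adjusted p = 0.0424) and without RasV12 replicate 3 (log2 -0.78, edgeR adjusted p = 0.00939). In MekDD and AKTmyr it stood at 24.6 ± 1.76 and 25.2 ± 5.31 CPM, with 95% intervals of the log2 difference from T53D4 of -0.47 to 0.41 and -0.43 to 0.44.

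EGFR, the receptor of the 4 ligands above, had per kb of exon the highest mean of the members in ARPE19, T53D4, MekDD and AKTmyr, while in RasV12 the mean of TGFA (21.4 ± 4.37 CPM per kb) stood above its own (16.2 ± 1.085 CPM per kb). It lies at chr7:55019017-55211628 (plus strand). RasV12 held 197, 193 and 218 CPM, MekDD 210, 227 and 282, T53D4 236, 348 and 432, ARPE19 353, 381 and 424, and AKTmyr 351, 364 and 478. RasV12 lay below every library of T53D4, ARPE19 and AKTmyr and overlapped MekDD. EGFR fell in RasV12 against T53D4 by log2 0.74 in size (log2 -0.74, SE 0.20, edgeR adjusted p = 0.0138), a call lost without T53D4 replicate 3 (0.0738) or RasV12 replicate 1 (0.0511) or 2 (0.0513). It was lower in RasV12 than in AKTmyr (log2 -0.97, SE 0.20, edgeR adjusted p = 0.00166) and than in ARPE19 (log2 -0.93, SE 0.20, edgeR adjusted p = 0.00301), and these calls held in every alternative.

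EGFR was also lower in MekDD than in AKTmyr (log2 -0.73, SE 0.20, edgeR adjusted p = 0.0152) and than in ARPE19 (log2 -0.69, SE 0.20, edgeR adjusted p = 0.0387). The first was lost without MekDD replicate 1 (0.0626) or 2 (0.0594) or AKTmyr replicate 3 (0.0542). The second was lost without ARPE19 replicate 1 (0.0704), 2 (0.0963) or 3 (0.0875) or MekDD replicate 1 (0.142) or 2 (0.128). Between RasV12 and MekDD the 95% interval of the log2 difference ran from -0.66 to 0.18 (edgeR adjusted p = 0.471).

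ERBB2, the ligandless partner receptor, lies at chr17:39687914-39730426 (plus strand) and overlaps MIEN1 and PGAP3 on the minus strand. Whether strand was used in counting is not given in the sources used here, so reads of those genes cannot be told apart from its own. RasV12 held 46.2, 39.9 and 46.7 CPM against 82.7, 67.7 and 79.6 in T53D4, and every RasV12 library lay below all 12 others. ERBB2 fell in RasV12 against T53D4 (log2 -0.79, SE 0.13, edgeR adjusted p = 0.00045), and was lower than in AKTmyr (log2 -0.66, SE 0.13, edgeR adjusted p = 0.0011) and ARPE19 (log2 -0.75, SE 0.13, edgeR adjusted p = 0.000604). Against MekDD it was lower by log2 0.48 in size (log2 -0.48, SE 0.13, edgeR adjusted p = 0.0182), a call lost without MekDD replicate 2 (0.0551) or 3 (0.0683) or RasV12 replicate 2 (0.0895).

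ERBB3, the kinase-impaired receptor of neuregulins, was near the floor of detection. Its gene at chr12:56076799-56103505 (plus strand) overlaps AC034102.2 on the same strand. Each line held 27 to 48 reads over 3 libraries, or 0.27 to 0.47 CPM. No comparison called it, and its 95% interval for RasV12 against T53D4 ran from log2 -1.84 to 0.30.

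The remaining comparisons gave these counts. RasV12 against MekDD had AREG higher and ERBB2 lower, beside 7.17% and 8.33% of all genes. RasV12 against AKTmyr had AREG and HBEGF higher and EGFR and ERBB2 lower, beside 19.6% and 20.7%. MekDD against AKTmyr had HBEGF higher and EGFR lower, beside 12.7% and 13.5%. Against ARPE19, RasV12 had AREG higher and NRG1, EGFR and ERBB2 lower, beside 14.4% and 16.2%. MekDD had EGFR as its one call, lower, beside 4.61% of genes higher and 6.27% lower, and AKTmyr had HBEGF as its one call, lower, beside 7.98% and 8.86%. In bulk RNA a lower level per cell and fewer cells with the transcript cannot be told apart.

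Levels were compared between genes per kb of merged exon length. EGF, an EGFR ligand outside the member list, was left out of the ligand sum. It held 1.26 CPM per kb in AKTmyr and 0.54 to 0.61 in the other lines. ERBB4, also outside the list, was put in the receptor sum. Summed over AREG, HBEGF, TGFA and BTC, EGFR ligand transcripts reached 36.3 ± 1.09 CPM per kb in RasV12, 26.7 ± 2.06 in ARPE19, 26.2 ± 10.9 in MekDD, 17.0 ± 6.28 in T53D4 and 16.9 ± 4.67 in AKTmyr. TGFA held the largest mean share in every line, from 47.2% in T53D4 to 71.6% in AKTmyr. HBEGF held 44.96% in T53D4 and 16.8% in AKTmyr. With the longest transcript as length, HBEGF (47.0%) stood above TGFA (46.5%) in T53D4. AREG made up 5.74% of the sum in RasV12 and 0.45% to 0.72% elsewhere, where without replicate 2 it was 0.32% in ARPE19, 0.43% in MekDD and 0.26% in AKTmyr.

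Among receptors, EGFR held 74.5% to 81.3% of the summed level per kb and ERBB2 17.7% to 23.6%. The ERBB2 share depends on the length used and is larger with the longest transcript. Merged exons span 10321 bases in ERBB2 and 12525 in EGFR, and the longest transcripts 4930 and 9905. ERBB4, the other neuregulin receptor, held 0.29% in RasV12, 0.91% in AKTmyr, 1.76% in MekDD, 2.05% in T53D4 and 2.62% in ARPE19. The MekDD share was 0.97% without replicate 3, where ERBB4 stood at 13.0 CPM beside 1.84 and 4.20 in the other two. Without that library ERBB4 was called lower in MekDD than in T53D4 (edgeR adjusted p = 0.0468) and ARPE19 (0.0107), which it was not with all libraries (0.644 and 0.213). The receptor sum was 20.6 ± 1.35 CPM per kb in RasV12 and 35.2 ± 7.84 in T53D4. These shares are descriptions, with no test.

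**Figure D4:**
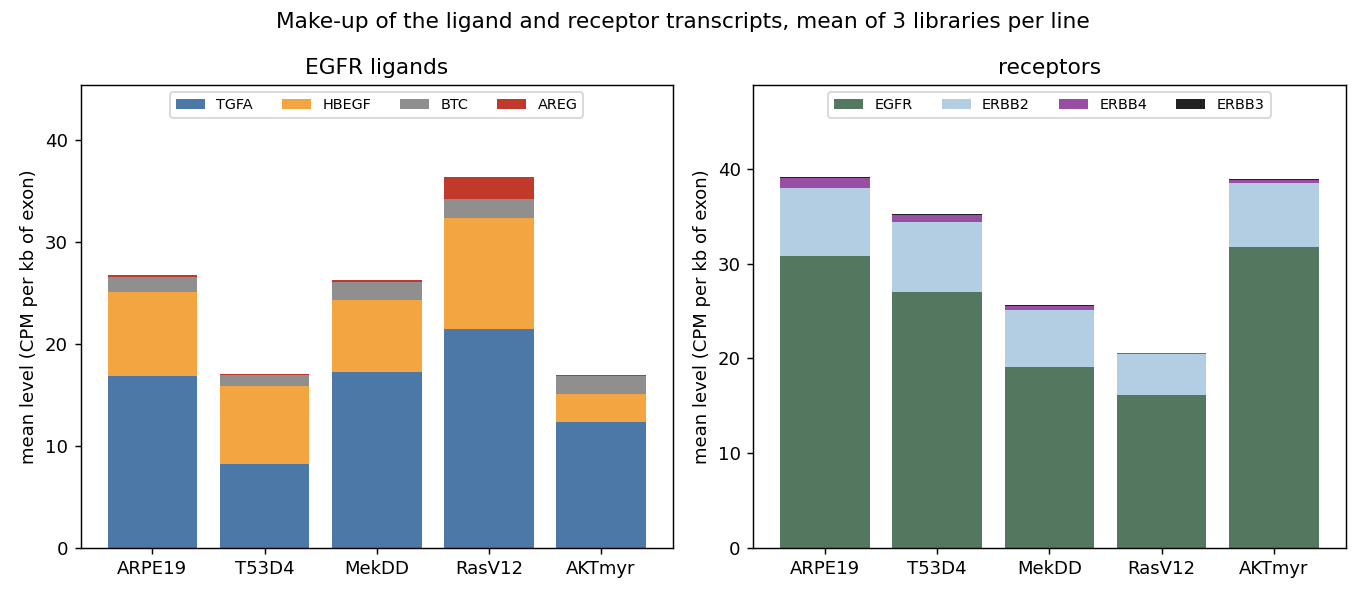
Mean level per kb of exon (CPM per kb, y axis, stacked from 0) of the EGFR ligands (AREG, HBEGF, TGFA and BTC, without EGF) and of the receptors (with ERBB4) in the 5 lines, 3 libraries per line. The ligand sum is highest in RasV12 (36.3) and the receptor sum lowest there (20.6).

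A list of 40 other genes of the pathway was followed, of which 39 had a row and 38 were tested. In RasV12 against T53D4, 6 were higher and 9 lower, beside 10.8% and 13.6% of all genes, with a median log2 of -0.03 beside 0.01 over all genes. With the replicate block these counts were 9 and 15, and over all genes 2259 and 2607 against 1466 and 1847 without it. With the 2 lines alone they were 5 and 10, and over all genes 1343 and 1672. Leaving out 1 library gave 6 higher and 6 to 9 lower, the fewest without T53D4 replicate 2 or RasV12 replicate 2. ERBB4 fell from 9.50 ± 3.31 CPM in T53D4 to 0.78 ± 0.18 CPM in RasV12 (log2 -3.62, SE 0.61, edgeR adjusted p = 0.000678), and the groups did not overlap. Of the 3 other ligands tested, the neuregulin gene NRG2 rose from 3.02 ± 1.47 to 17.8 ± 1.22 CPM (log2 2.57, SE 0.36, edgeR adjusted p = 0.000148) and NRG3 fell (log2 -1.55, SE 0.34, edgeR adjusted p = 0.00443).

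Of 14 receptor inhibitors and turnover genes, 3 were higher and 2 lower in RasV12 against T53D4. The shares of all genes in this comparison, 10.8% higher and 13.6% lower, stand beside each group count of this paragraph. CBL (log2 0.45, edgeR adjusted p = 0.00423) and SOCS4 (log2 0.46, edgeR adjusted p = 0.0104) were among the 3 higher, and both calls held in every alternative. ERRFI1, which codes for MIG6, an inhibitor that binds the EGFR kinase, had 297, 182 and 175 CPM in RasV12 and 64.1, 38.9 and 36.9 CPM in T53D4 (log2 2.22, SE 0.27, edgeR adjusted p = 4.33e-05). LRIG1, which promotes EGFR turnover, was lower (log2 -1.63, SE 0.43, edgeR adjusted p = 0.0134), a call lost without T53D4 replicate 1 (0.0705) or RasV12 replicate 2 (0.0514) or 3 (0.0517). LRIG3 was lower too (log2 -0.59, SE 0.15, edgeR adjusted p = 0.012), a call lost without T53D4 replicate 2 (0.0642) or RasV12 replicate 3 (0.0528). Of 8 sheddases and partners, 1 was higher and 2 lower (5 lower without RasV12 replicate 3, 1 without RasV12 replicate 1 or 2 or T53D4 replicate 1, 6 with the block, and 4 with the 2 lines alone). RHBDL2, a rhomboid protease, fell (log2 -1.01, SE 0.24, edgeR adjusted p = 0.00691). ADAM9 was lower too (log2 -0.74, SE 0.20, edgeR adjusted p = 0.0141), a call lost without RasV12 replicate 1 (0.052) or 2 (0.0681) or T53D4 replicate 1 (0.0559). RHBDF1 was higher (log2 0.57, SE 0.15, edgeR adjusted p = 0.0112), a call lost with the 2 lines alone (0.0517). Of 12 adaptors and effectors, 1 was higher (SHC1, log2 0.50, SE 0.11, edgeR adjusted p = 0.00335) and 3 were lower, namely the docking protein genes GAB2 (log2 -1.21, SE 0.24, edgeR adjusted p = 0.00221) and GAB1, and PIK3R1. Without RasV12 replicate 3, PIK3R1 (0.053) and GAB1 (0.125) were lost, as they were without T53D4 replicate 2 (0.0774 and 0.0719), so that 1 remained called. GAB1 was lost in 5 of 6 fits that left out 1 library and with the 2 lines alone (0.0695), and PIK3R1 also without RasV12 replicate 1 (0.067).

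In AKTmyr against T53D4, 11 of the 38 were higher and 3 lower, beside 9.91% and 10.2% of all genes, with a median log2 of 0.23 beside -0.01 over all genes. The replicate block gave 16 and 5, beside 2304 and 2434 over all genes. The 2 lines alone gave 8 and 2, beside 788 and 661. Without T53D4 replicate 3 the counts were 6 and 2, and without AKTmyr replicate 1 they were 7 and 1. Of the 8 sheddases and partners 4 were higher, namely ADAM12, ADAM9, ADAM10 and ADAM17. Without AKTmyr replicate 1, ADAM9 (edgeR adjusted p = 0.162), ADAM10 (0.0786) and ADAM17 (0.0531) were lost, and without T53D4 replicate 3 they were lost too (0.101, 0.0687 and 0.0767), so that 1 remained called. Without T53D4 replicate 2, ADAM9 (0.122) and ADAM10 (0.0676) were lost, and with the 2 lines alone ADAM9 was (0.0814). ADAM12 had 537, 386 and 323 CPM in AKTmyr and 140, 108 and 105 CPM in T53D4 (log2 1.82, SE 0.25, edgeR adjusted p = 0.000368), with no overlap. EGF, the founding ligand of the family, rose from 4.34 ± 0.34 to 9.58 ± 2.50 CPM (log2 1.14, SE 0.22, edgeR adjusted p = 0.00324), NRG3 fell (log2 -2.22, SE 0.35, edgeR adjusted p = 0.00101), and PIK3R1, the regulatory subunit of PI3K, rose (log2 1.01, SE 0.20, edgeR adjusted p = 0.00364). In MekDD against T53D4, NRG2 was the 1 gene called higher (log2 1.69, SE 0.35, edgeR adjusted p = 0.0113) and 0 were lower. This stands beside 2.27% of all genes higher and 2.83% lower. The call was lost without MekDD replicate 2 (0.0545) and with the 2 lines alone (0.0713), where 0 genes of the list were called. For the list as a whole, 6 genes were at an unadjusted p under 0.05, DESeq2 called 3, and the replicate block gave 3 higher and 1 lower. Over all genes 2378 were at that unadjusted p, DESeq2 called 498 higher and 629 lower, and the block 746 and 843.

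T53D4 against ARPE19 called 0 of the 38 by edgeR, with 3 at an unadjusted p under 0.05, 1 by DESeq2 and 1 with the replicate block. The shares of all genes below are from the fit without the block, which called more of all genes in every comparison when added. Over all genes the block called 1700 higher and 1888 lower in RasV12 against MekDD, and 2756 and 2725 in MekDD against AKTmyr. It called 1451 and 1613 in MekDD against ARPE19, and 1960 and 2067 in AKTmyr against ARPE19. The 2 lines alone called 889 and 1075, 1100 and 1249, 417 and 634, and 659 and 706 in the same order. RasV12 against MekDD gave 4 higher and 8 lower, beside 7.17% and 8.33% of all genes, with 7 and 10 under the block, 2 and 6 from the 2 lines alone, and 2 to 3 and 2 to 7 when 1 library was left out, the fewest without MekDD replicate 3. MekDD against AKTmyr gave 4 and 11, beside 12.7% and 13.5%, with 7 and 15, 4 and 6, and 3 to 4 and 5 to 11 in the same order, the fewest without MekDD replicate 2. MekDD against ARPE19 gave 2 and 2, beside 4.61% and 6.27%, with 5 and 6, 1 and 2, and 0 to 1 and 1 to 2, the fewest without MekDD replicate 2 or ARPE19 replicate 1 or 2. AKTmyr against ARPE19 gave 8 and 3, beside 7.98% and 8.86%, with 12 and 7, 7 and 5, and 6 to 8 and 2 to 4, the fewest without AKTmyr replicate 1 or ARPE19 replicate 3. RasV12 gave 4 higher and 15 lower against AKTmyr, beside 19.6% and 20.7% of all genes, and 3 to 4 and 13 to 15 without 1 library. Against ARPE19 it gave 6 and 11, beside 14.4% and 16.2%, and 5 to 6 and 7 to 14 without 1 library, the fewest lower without RasV12 replicate 2.

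Line means differed by at least 2-fold for AREG, HBEGF and TGFA. The genes nearest in pattern were found by the root mean square difference between centred log2 CPM profiles over 15 libraries. For AREG they were INSYN2A (0.62), CD163L1 (0.62) and DGKG (0.62), against 1.66 for AREG about its own mean. Their RasV12 means were 2.44, 5.84 and 0.84 CPM, while in the other lines INSYN2A lay at 0.03 to 0.15, CD163L1 at 0.17 to 0.59 and DGKG at 0 to 0.02 CPM. With so few reads outside RasV12, the likeness to AREG says only that all were near 0 there and higher in RasV12. For HBEGF they were TRIM8 (0.29), PLEKHN1 (0.30) and NSUN7 (0.32), against 0.71. For TGFA they were RNF24 (0.32), the carboxypeptidase M gene (0.33) and HOMER1 (0.40), against 0.67. The other 5 members ranged from 1.72-fold (BTC) to 1.96-fold (EGFR) between line means.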

How the data were processed

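Poly(A) RNA of 5 lines was sequenced, 3 libraries per line, and each column was placed by its sample label (0 columns were left over). The raw counts per gene are the authors' deposited counts. Per the submitters' processing notes, DESeq2 1.28.1, deepTools 3.2.0, featureCounts 1.6.4, HISAT2 2.1.0, SAMtools 1.9 and fastp 0.20.0 were used, with build hg38. Their roles are not stated, and neither is the use of strand in counting. The smallest row total was 10 reads.

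The members and gene lists were chosen with earlier results of these data known. The 7 construct rows were left out of library sizes. CPM used TMM factors computed here, and levels between genes were divided by merged exon length from the deposited annotation. The filter was filterByExpr by line, with a minimum count of 10, and left 13599 genes. The test was edgeR 4.0.16 quasi-likelihood (R 4.3.3) on all 15 libraries with line as sole factor, 10 comparisons, Benjamini-Hochberg adjusted. The code was checked on simulated counts of independent libraries, with the fitted spread and known changes in RasV12. Those counts held no deviations shared by same-numbered libraries, so the check does not show how the test fares with them. Alternatives were RLE factors, no filter, DESeq2 1.42.0, the replicate block, the 2 lines alone, and leaving out each library. Named genes were the members, the largest changes within 1 Mb of AREG, and the 3 nearest patterns per member. For the pathway lists the rule was up to 3 called genes per list with the largest change and at least 5 CPM. Not every gene under that rule is named, and some called genes outside it are.

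Same-numbered libraries correlated over 0.1 in their deviations from line means in every pair in 8 of the 10 comparisons (0.10 to 0.72), but not in RasV12 against AKTmyr (lowest 0.03) or against ARPE19 (lowest 0.01). The numbers come from the labels, which name no shared batch. Depth followed the numbers. In every line replicate 2 was the largest library (36.95 M to 46.55 M reads on genes) and replicate 3 the smallest (20.63 M to 24.05 M). The main fit does not use the numbers, so its counts of calls, also those of 0, leave this pairing out. The promoter table is RefSeq's. Reads carry no molecular identifiers, so duplicate reads cannot be told from separate molecules. Greater depth lowers counting error and no other spread.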

Additional observations from a re-analysis of the deposited data

How the results depend on the processing

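Over RLE factors and no low-count filter, all calls on members were kept and the counts of members called did not move. The 2 lines alone gave 1 member called instead of 2 in AKTmyr against T53D4 and 4 instead of 5 in RasV12 against T53D4, losing BTC in both. DESeq2 gave 1 instead of 0 in MekDD against T53D4, and called NRG1 in RasV12 against AKTmyr (adjusted p = 0.0472). The replicate block gave 1 instead of 0 in T53D4 against ARPE19 and 3 instead of 0 in MekDD against T53D4, and beyond the calls given above it changed no call in the 8 comparisons where the numbers pair the libraries, while TGFA in MekDD against ARPE19 (uncalled) turned to log2 -0.12. In RasV12 against AKTmyr, where the pairing check was not met, the block called TGFA (adjusted p = 0.00981) and NRG1 (0.0281), so that 6 members were called instead of 4, and in RasV12 against ARPE19 it left 4. Over all genes the block called more in every comparison, for example 101 higher and 131 lower against 5 and 16 in T53D4 against ARPE19, 746 and 843 against 309 and 385 in MekDD against T53D4, and 2304 and 2434 against 1347 and 1391 in AKTmyr against T53D4. DESeq2 called 79 and 113 in T53D4 against ARPE19 and 498 and 629 in MekDD against T53D4. The 2 lines alone called 1 and 1 in T53D4 against ARPE19 and 788 and 661 in AKTmyr against T53D4. The cause of these changes was not tested.

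Leaving out 1 library gave 3 to 5 members called in RasV12 against T53D4, 0 to 1 in MekDD against T53D4, 1 to 2 in AKTmyr against T53D4, 1 to 3 in RasV12 against MekDD, 4 to 5 in RasV12 against AKTmyr, 1 to 2 in MekDD against AKTmyr and 0 to 1 in MekDD against ARPE19, with no change in the other 3. These fits have fewer libraries. No called member changed sign. Of 874 member values under an alternative, 44 uncalled ones changed sign, 43 of them by leaving out 1 library. The log2 ranges of those members were as follows. In MekDD against ARPE19 they were AREG (-0.35 to 1.16), TGFA (-0.63 to 0.28) and ERBB3 (-0.73 to 0.25). In AKTmyr against ARPE19 they were EGFR (-0.11 to 0.13), ERBB3 (-0.18 to 0.26) and AREG (-1.59 to 0.18). In T53D4 against ARPE19 they were AREG (-0.99 to 0.47), ERBB2 (-0.046 to 0.13), EGFR (-0.40 to 0.0074), HBEGF (-0.44 to 0.024) and ERBB3 (-0.11 to 0.37). In MekDD against T53D4 they were HBEGF (-0.24 to 0.22), NRG1 (-0.077 to 0.036) and ERBB3 (-0.86 to 0.11). In AKTmyr against T53D4 they were AREG (-1.09 to 0.18), NRG1 (-0.17 to 0.11) and ERBB3 (-0.31 to 0.12). In MekDD against AKTmyr they were TGFA (-0.18 to 0.75), BTC (-0.13 to 0.0061), NRG1 (-0.14 to 0.14) and ERBB3 (-0.74 to 0.25). In RasV12 against MekDD they were ERBB3 (-0.97 to 0.088) and BTC (-0.012 to 0.24). In RasV12 against AKTmyr they were BTC (-0.062 to 0.19). AREG outside RasV12 and ERBB3 rest on 1 to 28 reads per library, which limits their precision.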
